A study of Mus musculus with 400 samples.

Results

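The HOX genes are the homeobox genes of the clusters A, B, C and D. All entries of the deposited gene tables named Hoxa, Hoxb, Hoxc or Hoxd with a number were taken as members, which gave 39 of the 24754 gene entries used. Of these, 33 had a value above 0 in at least 1 cell. They were described in single sensory neurons of the cervical dorsal root ganglia, pooled over the ganglia C1 to C8, so that the segment of origin of a cell was not recorded.

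HOX proteins are transcription factors that give cells positional identity along the head to tail axis. Genes at the same place in the 4 clusters form a paralogue group, and low-numbered groups are switched on earlier and further towards the head than high-numbered ones. In spinal and sensory neurons HOX factors also act in subtype identity and connectivity. They bind DNA together with TALE homeobox cofactors of the Pbx, Meis and Pknox families, polycomb proteins keep silent HOX genes off, and retinoic acid acts upstream of the anterior members.

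The cells came from 6 untreated mice that carried Nav1.8-Cre with a floxed-stop tdTomato reporter at the R26 locus (strain label Nav1.8-Cre.Ai14), aged 6 to 12 weeks. Nav1.8 is the sodium channel made by Scn10a, so the reporter marks cells that use or once used this promoter, and large neurons without that history are not sampled. tdTomato-positive cells were sorted singly by flow cytometry on 4 occasions. Run 1 held mice Blue and Red, run 2 held Control, Control6 was the mouse of run 4, and the mice Control1 and Control2 came from run 3. Each deposited sample is 1 cell, and the mouse is the replicate. The word Control in the names marks no treatment, since all mice were naive.

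Of 394 cells with values, 371 held at least 500 genes and were kept. Blue gave 34% of them and Red 34.5%, and Control1, Control2, Control6 and Control gave 19, 23, 25 and 50 cells. A kept cell had a median of 30397 recovered counts (909 to 324939) and 6580 genes. The 23 cells left out had at most 388 counts and no HOX count. Of 12 pan-neuronal genes, all were detected, and their summed level lay between 12002 and 14212 CPM by mouse, where CPM is the count after each cell is scaled to the same total. Summed markers of satellite glia, the cells that wrap these neurons, lay between 326 and 2304 CPM, and those of Schwann cells between 1098 and 1600 CPM. No 2 cells had identical columns.

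Anterior and middle paralogue groups were on, and 3 of the 4 clusters carried nearly all of the signal. The summed HOX level was 75 CPM in cluster B (SD 17.3, n = 6 mice), 45.3 CPM in cluster D (SD 6.78) and 37.2 CPM in cluster A (SD 8.70). Cluster C summed to 2.88 CPM (SD 4.22). Clusters B, D and A therefore held 46.5%, 28.5% and 23.3% of the HOX signal, and cluster C 1.75%. By paralogue group, group 5 held 29.1%, group 4 21.7%, group 3 19.1%, group 1 9.06%, group 8 8.90% and group 2 6.26%. Groups 6, 7 and 9 held 1.52%, 2.45% and 1.24%. Groups 10, 11 and 13 held 0.294%, 0.0158% and 0.242%, and no member of group 12 was detected.

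**Figure D1:**
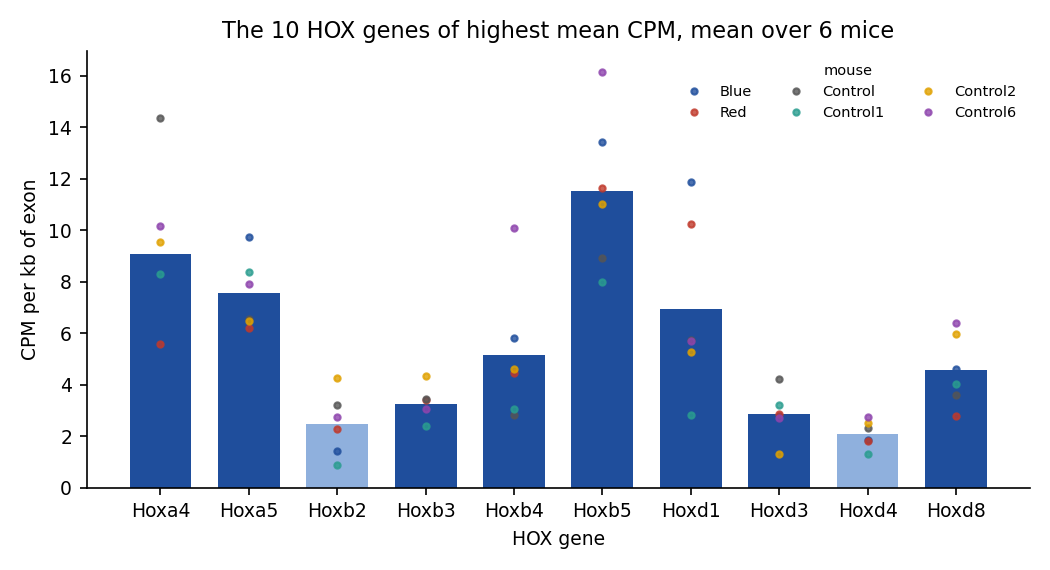
The 10 HOX genes of highest mean CPM (x axis, by cluster and paralogue group). The y axis is CPM per kilobase of exon, and bars are means over 6 mice, dark blue for members whose mean reached 10 CPM, light blue for Hoxb2 and Hoxd4, whose mean did not, and points are single mice. The tallest bars are Hoxb5 at 11.5, Hoxa4 at 9.09, Hoxa5 at 7.55 and Hoxd1 at 6.95 CPM per kb.

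Members were called on at a mean over mice of at least 10 CPM and low from 1 to 10 CPM. By this rule 8 members were on, 10 were low, 15 were at trace level and 6 were not detected. Members just inside the cut were Hoxd3 at 12.0 CPM and Hoxd8 at 12.5 CPM, and just outside it Hoxb2 at 8.62 CPM. The number on was 7 to 9 under the alternatives tried. Hoxa4 was not among them in run 1 alone and Hoxd1 not in runs 2 to 4 alone.

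In cluster B, Hoxb5 was the most abundant member (chromosome 11, 96303336 to 96306121, plus strand, GRCm38). Its level by mouse was 22.3 CPM at the lowest, 31.6 at the median and 45 at the highest, with a mean of 32.1 CPM (SD 8.31, n = 6). It was detected in 154 of 371 cells, or 41.5% (95% exact binomial interval 36.4% to 46.7%, which covers counting error only). Hoxb3 (chromosome 11, 96323326 to 96347930) had a mean of 13.8 CPM (SD 2.76, 10.2 to 18.4 by mouse) and was detected in 35% of cells. Hoxb4 (chromosome 11, 96318267 to 96321638) had a mean of 13.2 CPM (SD 6.81, 7.26 to 25.9), with Control6 above the other 5 mice. These 3 neighbours were thus on together, while Hoxb2 at 8.62 CPM (SD 4.25), Hoxb7 at 3.67 (SD 0.499) and Hoxb6 at 2.31 (SD 1.87) were low. Hoxb8 and Hoxb9 were at 0.753 and 0.448 CPM, Hoxb1 at 0.0506 CPM, and Hoxb13 was in 0 of 371 cells.

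In cluster A only the 2 neighbours Hoxa4 and Hoxa5 were on. Hoxa4 (chromosome 6, 52189671 to 52191753, minus strand) had a mean of 14.5 CPM (SD 4.94, 8.87 to 22.9 by mouse) and was in 29.1% of cells. Hoxa5 (chromosome 6, 52201754 to 52204587, minus strand) had a mean of 14.2 CPM (SD 2.62, 11.6 to 18.3) and was in 28.8% of cells. Their ranges over mice overlap, and per kilobase of exon Hoxa4 was at 9.09 and Hoxa5 at 7.55 CPM. Hoxa3 was at 4.42 CPM (SD 2.34) and Hoxa2 at 1.71 (SD 3.39; 76.5% of its level in Control2 came from 1 cell), while Hoxa6, Hoxa7, Hoxa9, Hoxa10 and Hoxa13 were between 0.0337 and 0.354 CPM.

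In cluster D the members on were Hoxd1, Hoxd3 and Hoxd8. Hoxd1 (chromosome 2, 74762980 to 74765142, plus strand), the most anterior member, had a mean of 12.9 CPM (SD 6.32). It was at 22.1 CPM in Blue and 19.1 in Red, the mice of run 1, and at 5.30 to 10.7 CPM in the other 4 mice, so that the runs did not overlap. Hoxd3 (chromosome 2, 74711927 to 74748442) had a mean of 12.0 CPM (SD 3.94, 5.55 to 17.7) and Hoxd8 (chromosome 2, 74704615 to 74707933) of 12.5 CPM (SD 3.8, 7.68 to 17.5). Hoxd4 was low at 6.18 CPM (SD 1.59) in 13.5% of cells, and Hoxd9 at 1.26 CPM (SD 1.12) in 4.31%. Per kilobase, Hoxd1 was at 6.95, Hoxd8 at 4.57, Hoxd3 at 2.86 and Hoxd4 at 2.10 CPM. In cluster C, Hoxc4 at 1.2 CPM (SD 0.737) and Hoxc8 at 1.10 CPM (SD 2.54) were low and the other 7 members were at 0.223 CPM or lower. The 6 members without a count were Hoxa11, Hoxb13, Hoxc5, Hoxc11, Hoxc12 and Hoxd12, for each of which 0 of 371 cells allows a share of cells with a count of up to 0.809% (3 counts of the total). This limits detection at this depth, not expression.

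The upstream sequences of the HoxD members are shown because Hoxd1, Hoxd3 and Hoxd4 were scarce in the neurons with high Mrgprd, a receptor gene of nociceptors, where Hoxb5 was high, and Hoxd8 is their neighbour that was on. Each is the 250 bases before the RefSeq start of the gene on chromosome 2, plus strand, 5′ to 3′, from RefSeq (GRCm38.p6): chr2:74762730-74762979 for Hoxd1, chr2:74711743-74711992 for Hoxd3, chr2:74721728-74721977 for Hoxd4 and chr2:74704365-74704614 for Hoxd8. In Hoxd1 the capitals mark the 83 bases between its start and the start of the antisense gene Haglr, which lies on the minus strand. In Hoxd3, Hoxd4 and Hoxd8 they mark AGGTCA, a core sequence bound by many nuclear receptors, on the plus strand or as its reverse complement TGACCT.
Hoxd1: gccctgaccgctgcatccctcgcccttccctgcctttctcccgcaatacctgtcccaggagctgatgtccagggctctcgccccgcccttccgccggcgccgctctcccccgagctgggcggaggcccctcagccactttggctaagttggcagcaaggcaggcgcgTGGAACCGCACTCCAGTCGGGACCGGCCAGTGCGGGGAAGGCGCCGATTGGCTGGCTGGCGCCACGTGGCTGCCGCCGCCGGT
Hoxd3: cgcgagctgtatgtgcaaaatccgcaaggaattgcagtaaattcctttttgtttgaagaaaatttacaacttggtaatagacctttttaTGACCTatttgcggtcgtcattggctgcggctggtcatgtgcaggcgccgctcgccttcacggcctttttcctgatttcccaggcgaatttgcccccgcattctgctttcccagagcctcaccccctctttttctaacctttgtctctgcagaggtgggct
Hoxd4: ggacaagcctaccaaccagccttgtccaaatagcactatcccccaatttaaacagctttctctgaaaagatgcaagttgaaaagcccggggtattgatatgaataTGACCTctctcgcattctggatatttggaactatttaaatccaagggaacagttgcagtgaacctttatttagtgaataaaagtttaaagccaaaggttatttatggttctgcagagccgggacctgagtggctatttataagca
Hoxd8: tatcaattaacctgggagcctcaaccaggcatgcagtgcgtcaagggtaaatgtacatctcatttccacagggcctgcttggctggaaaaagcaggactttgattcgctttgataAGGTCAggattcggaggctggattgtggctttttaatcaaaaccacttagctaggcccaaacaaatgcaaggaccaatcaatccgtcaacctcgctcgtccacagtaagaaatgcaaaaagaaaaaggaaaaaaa
The letters AGGTCA were searched on both strands of the 250 bases before each start in the RefSeq windows. A window was present for 22 of the 39 members, 24 windows in all, and 6 of these held a match (25%): those of Hoxb4, Hoxc4, Hoxd3, Hoxd4, Hoxd8 and Hoxd10. Of all 32851 windows, searched over the same 250 bases, 14% held one. A match is a description of letters only, and the 250 bases before Hoxd1 hold none.

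Noncoding transcripts of the clusters were also measured. Of 23 listed, 19 were in the tables. Hoxaas2, antisense in cluster A, was at 12.4 CPM (SD 3.45), Haglr at 9.76 CPM (SD 4.07) and Hotairm1, also of cluster A, at 9.24 CPM (SD 5.13). The labels and processing notes do not say whether counting used the strand, so reads in shared exons cannot be assigned. Hoxb3 shares 2250 exon bases (52.9% of its exons) with Hoxb3os, Hoxb2 27.3% with the same gene, and Hoxb5 3.59% with Hoxb5os. Hoxd3 and Hoxd4 share 388 exon bases on the same strand, and Hoxd3 and Haglr 21 bases. The annotated gene Gm28230, on the same strand, covers 53.1% of the exon bases of Hoxd3 and 39.1% of those of Hoxd4. The levels of Hoxb3, Hoxd3 and Hoxd4 are uncertain to this extent.

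The TALE cofactors were present in the same cells. Pknox2 was at 60.2 CPM (SD 6.80), Meis3 at 36.6 (SD 7.32), Pbx2 at 32.7 (SD 3.34), Pknox1 at 22.6 (SD 11.7) and Pbx3 at 16 (SD 2.36). Meis1, Pbx4 and Meis2 were between 7.32 and 8.55 CPM. Per kilobase, Meis3 at 11.5 and Pbx2 at 8.99 CPM stood beside Hoxb5 at 11.5 CPM.

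Most cells had several members detected at once. The median cell had 3 HOX genes detected, 269 of 371 cells (72.5%) had 2 or more and 27.8% had 5 or more. In 34 cells (9.16%) none was detected. Members of at least 2 clusters were found in 230 cells (62%, exact interval 56.8% to 67%), in 80 cells members of 3 clusters and in 3 cells members of all 4. The most posterior group detected was 4 or 5 in 156 cells (42%), 6 to 8 in 100 (27%), 1 to 3 in 56 (15.1%) and 9 or higher in 25 (6.74%). Detection followed depth, with a Spearman correlation of 0.67 between the HOX genes in a cell and its counts over the 371 cells. When each cell was thinned to 10000 counts, which left out 29 shallower cells, the median was 1 gene, 26.6% of cells had none, and 25.4% of cells had members of 2 or more clusters. Requiring 2 recovered counts gave 25.3%.

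**Figure D2:**
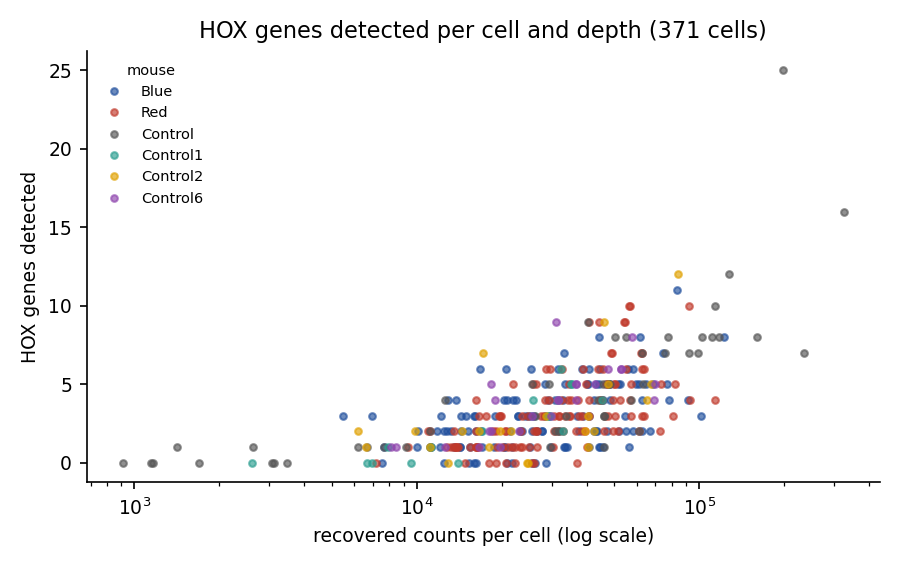
HOX genes detected in each cell (y axis) against the cell's recovered counts (x axis, log scale), with 1 point for each of the 371 cells and the colour giving the mouse. The number is larger in deeper cells, most cells lie at 10 genes or fewer, and a cell of mouse Control stands at 25 genes with 197704 counts, above the next at 16.

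One cell carried most of the posterior and cluster C signal. It came from mouse Control, passed no gate, and had 25 HOX genes detected, against 16 in the next cell. Its 258 HOX counts were of 2446 in all cells, and its summed HOX level was 1305 CPM against 141 CPM in the median cell. It held 89.4% of the cluster C counts and 165 of the 199 counts of Hoxb8, Hoxc8 and all members of groups 9 and higher. Hoxc8 had 62 counts in it and 2 in all other cells, Hoxb8 39 and 6, and Hoxa10 21 and 0. In the same cell Scn10a was the 9th lowest of the kept cells, and the pan-neuronal sum was 3411 CPM against a mean of 13544. The satellite glia sum was 4080 CPM and the Schwann cell sum 2798 CPM. Among pan-neuronal genes, Snap25 was above its median over kept cells (901 against 562 CPM), while Tubb3, Prph and Uchl1 were below theirs. Nefh was at 1093 CPM against a median of 89.8, and Pvalb, found in 2 other cells, at 70.8 CPM. What kind of cell this is was not tested. The cell had 197704 counts, the third highest, and thinned to 10000 counts it had 7 HOX genes, below the highest cell at 9. Without it, the same 8 members were on.

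Pairs of members were not spread evenly over the cells. Among the 10 pairs within clusters A and B, all 10 were found together in more cells than the product of their shares gives, by 1.37 to 1.80 times (median 1.57). Hoxa5 and Hoxb5 shared 80 cells against 44.4 from the product, and Hoxb3 and Hoxb5 89 against 54. Of the 3 pairs within cluster D, Hoxd1 and Hoxd3 shared 37 cells against 22.3, whereas Hoxd3 and Hoxd8 shared 13 against 16.6. Pairs of an A or B member with a D member were different: 9 of 15 were found together in fewer cells than the product, with a median of 0.942 times. Hoxb5 and Hoxd1 shared 35 cells against 45.2, Hoxb5 and Hoxd3 23 against 31.5, and Hoxa5 and Hoxd3 13 against 21.9. Deep cells add to every pair, and in cells thinned to equal depth the summed ratio was 1.28 for the A and B pairs and 0.997 for the mixed pairs.

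Detection of A or B members and of D members differed between cells chosen by marker genes of sensory subtypes. Cells were gated on Mrgprd at 200 CPM or more (30.5% of the kept cells; a receptor of nonpeptidergic nociceptors), Mrgpra3 at 50 CPM (47 cells; a receptor of itch neurons), Th at 100 CPM (39 cells; tyrosine hydroxylase, found in low-threshold C-fibres) and Calca at 2000 CPM (139 cells; the CGRP neuropeptide). Gates overlapped: 36 of the Mrgpra3 cells and 5 of the Th cells were also in the Calca gate, and 76 cells were in none. Values next to the cuts were 138 and 253 CPM for Mrgprd, 43 and 60.7 for Mrgpra3, 99.1 and 109 for Th, and 1909 and 2455 for Calca. Median depth was 46172 counts in the Mrgprd gate, 38541 in Mrgpra3, 32480 in Th, 26215 in Calca and 17505 in no gate.

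In the Mrgprd gate cluster B summed to 105.7 CPM (SD 25.6, n = 6 mice), cluster A to 37.9 (SD 11.7) and cluster D to 8.52 CPM (SD 2.41). In the Calca gate the sums were 65.6 CPM for B (SD 15.6), 33.8 for A (SD 19.2) and 79.3 for D (SD 10.4). Ranges of the cluster D sum did not overlap, with 5.10 to 11.5 CPM in the 6 Mrgprd means and 60.6 to 89.9 CPM in the 6 Calca means. The Th gate, with 2 mice of at least 3 cells, had 113.4 CPM for B, 77.2 for A and 25.9 for D. The Mrgpra3 gate, with 3 such mice, had 3.79 CPM for B, 15.4 for A and 44.1 for D.

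**Figure D3:**
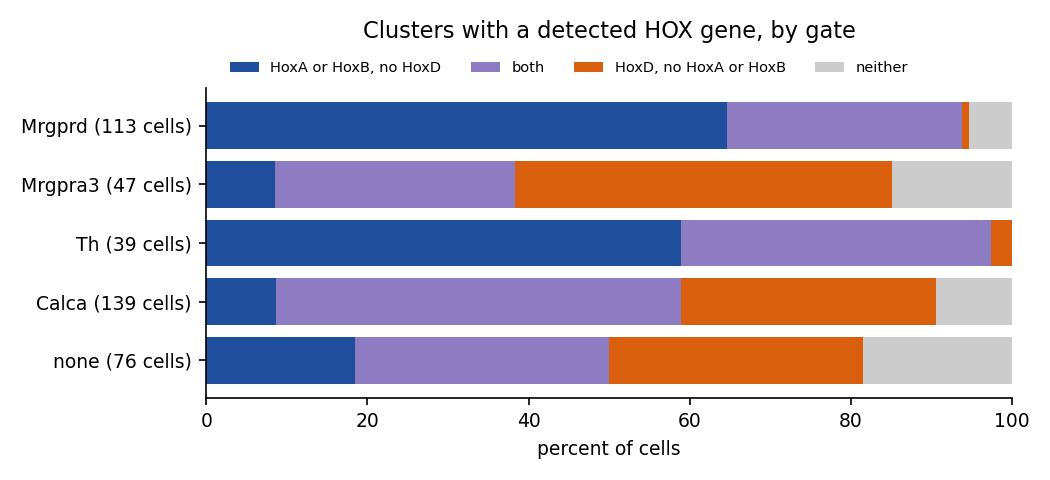
Share of cells (x axis, percent) with a detected member of clusters A or B only, of cluster D only, of both or of neither, by gate (y axis, number of cells in brackets). The A or B only share is 64.6% in the Mrgprd gate and 59% in the Th gate, against 8.63% in Calca and 8.51% in Mrgpra3, where the D only shares are 31.7% and 46.8%. The share with both is 50.4% in Calca. In cells of no gate (none) the A or B only share is 18.4% and the D only share 31.6%.

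The same pattern stood in single cells. In the Mrgprd gate 73 cells (64.6%) had members of A or B and none of D, and 1 cell (0.885%) had D without A or B. In the Th gate these were 23 of 39 (59%) and 1 (2.56%). The order of these 2 classes was the opposite in the other gates: 12 of 139 Calca cells (8.63%) had A or B alone and 44 (31.7%) D alone, and 4 of 47 Mrgpra3 cells (8.51%) had A or B alone and 22 (46.8%) D alone. The 76 cells of no gate had this order too, with 18.4% A or B alone and 31.6% D alone. The largest class of Calca cells had members of both sides, 70 cells (50.4%). Both sides were found in 29.2% of Mrgprd, 38.5% of Th and 29.8% of Mrgpra3 cells. Any of Hoxd1, Hoxd3 and Hoxd4 was detected in 14.2% of Mrgprd, 25.6% of Th, 66% of Mrgpra3 and 71.9% of Calca cells. The Calca cells, with the largest share, were shallower than the Mrgprd cells, with the smallest. Within the Calca gate the mixed pairs were found together more often, with Hoxb5 and Hoxd1 sharing 21 cells against 13.5 and Hoxb5 and Hoxd3 17 against 10.9 (14 of 15 mixed pairs above the product). Within the Mrgprd gate, where most cells had Hoxb5, the A and B pairs lay close to the product, with a median of 1.09 times over 10 pairs, Hoxa5 and Hoxb5 sharing 41 cells against 39.3.

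**Figure D4:**
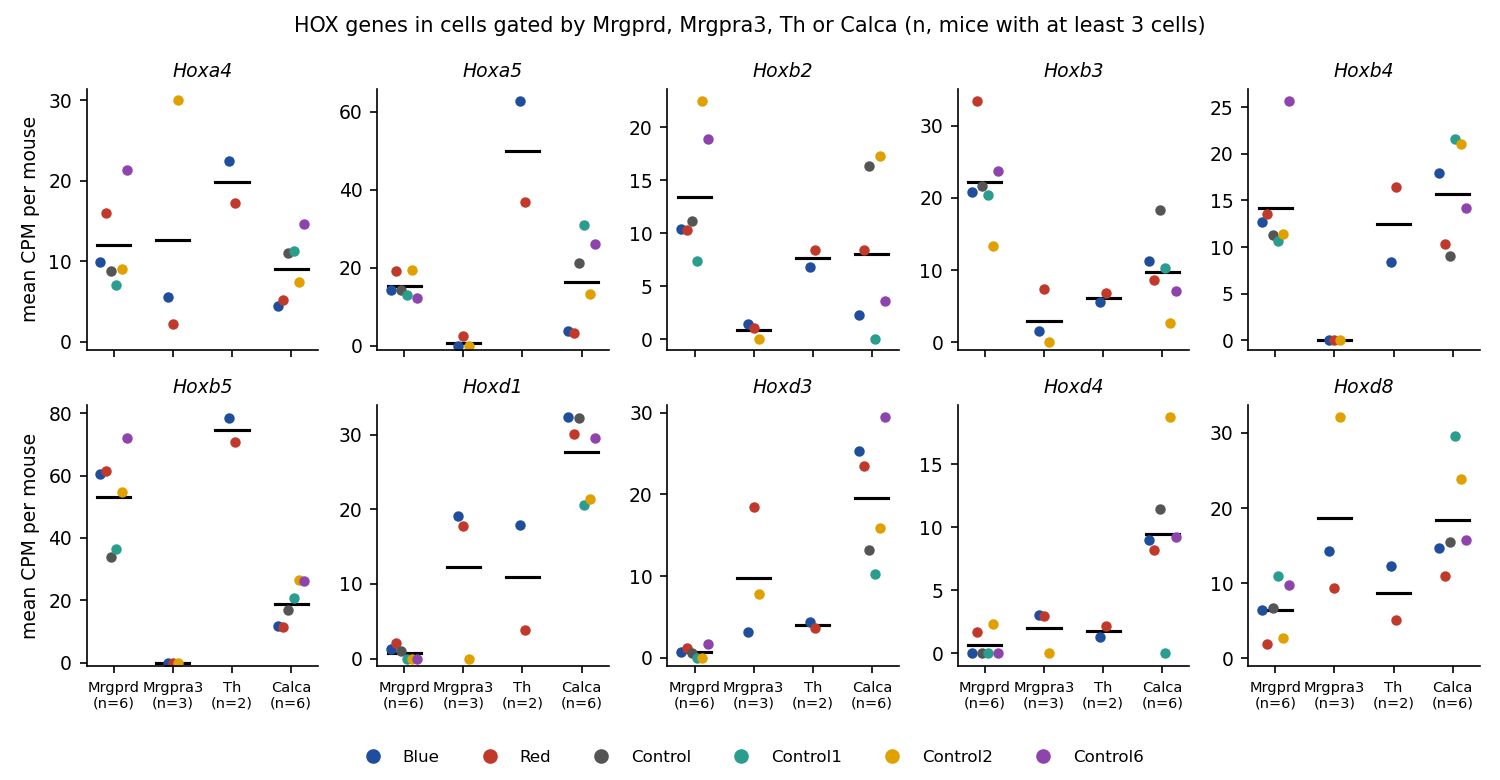
Mean CPM per mouse (y axis, a separate scale in each panel) of 10 HOX genes in the 4 gates (x axis); points are mice with at least 3 cells in the gate and lines their mean. Hoxb5 is at 53.2 CPM in the Mrgprd gate, 74.6 in Th, 18.9 in Calca and 0 in Mrgpra3, and Hoxd1 at 0.719 CPM in Mrgprd and 27.7 in Calca.

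Each gate was compared with all other cells of the same mice, by limma on log2 of the mean CPM plus 5 with the mouse as a block; differences are on that scale, which understates changes of low genes. Genes needed a mean of 10 CPM over the arms and mice 3 cells in each arm. The gates share the cells they are compared with, so the 4 comparisons are not independent. The gate genes themselves were left out.

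For Mrgprd against other cells, 22.1% of the 9065 genes tested passed an adjusted p of 0.05. Of the 39 members 6 passed the level filter, and 2 rose and 1 fell. The median of the 6 was 0.18 and that of all genes −0.03. Hoxb5 rose: its Mrgprd means were 33.9 CPM at the lowest mouse, 57.7 at the median and 72 at the highest, and the other cells of the same mice 11.9, 20.7 and 29.6. The groups did not overlap, it was higher in 6 of 6 mice, and the difference was 1.2 (SE 0.20, limma adjusted p = 0.000415). Hoxb3 rose by 1.00 (SE 0.31, adjusted p = 0.03), at 22.2 CPM (SD 6.53) against 9.36 (SD 6.68), in 5 of 6 mice, with Control2 the exception. Hoxd8 fell by 0.89 (SE 0.29, adjusted p = 0.0392), at 6.43 CPM (SD 3.63) against 16.1 (SD 6.67), and was lower in 6 of 6 mice. Hoxa4 at −0.28, Hoxa5 at 0.16 and Hoxb4 at 0.20 did not pass. Leaving out 1 mouse at a time kept Hoxb5 past the threshold in all 6 fits. Without Blue it was the only member called, and without Red too. Hoxb3 was also not called without Control1, without Control6 or in runs 2 to 4 alone. Hoxd8 was also not called without Control2, without Control6, in runs 2 to 4 alone, by DESeq2, in thinned cells, with means of log values or without cells high in satellite glial RNA, and was not tested in run 1 alone.

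Hoxd1, Hoxd3 and Hoxd4 were below the filter in that comparison where a mean of 10 CPM over both arms was required. Hoxd1 was at 0.719 CPM (SD 0.876) in the gate, with 0 at the lowest and 2.12 at the highest mouse, and at 19.2 CPM (SD 7.19, 9.15 to 29.2) in other cells. Hoxd3 was at 0.689 CPM (SD 0.68) against 18.4 (SD 6.42), and Hoxd4 at 0.678 (SD 1.07) against 9.43 (SD 3.14). The arms did not overlap for any of the 3. With no filter, 11.6% of 17782 genes were called, and of 33 members tested Hoxb5 rose and 4 fell: Hoxd1 by 2.04 (SE 0.20, limma adjusted p = 0.000984), Hoxd3 by 2.00 (SE 0.22, adjusted p = 0.00151), Hoxd4 by 1.34 (SE 0.18, adjusted p = 0.00383) and Hoxb7 by 0.87 (SE 0.12, adjusted p = 0.00395). Each was lower in 6 of 6 mice. Hoxb3 and Hoxd8 did not pass there, at adjusted p of 0.118 and 0.103.

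For Calca against other cells, 14.1% of 9179 genes were called. Of 8 members tested, Hoxd1 rose and none fell. It was at 20.6 CPM in the lowest mouse, 29.8 at the median and 32.3 in the highest, against 0, 4.51 and 14.9 CPM in other cells, with no overlap. The difference was 1.69 (SE 0.31, limma adjusted p = 0.00249), higher in 6 of 6 mice. It was 1.05 in run 1 alone and 2.01 in runs 2 to 4 alone, past the threshold in both. It was 1.88 in thinned cells and 1.80 without cells high in satellite glial RNA (4 mice left), and missed the threshold there, with adjusted p of 0.0596 and 0.058. Hoxd3 was 1.29 higher (adjusted p = 0.0713) and Hoxb5 0.91 lower (adjusted p = 0.0566), both short of the threshold. Hoxa4 at −0.68, Hoxb3 at −0.58, Hoxa5 at −0.05, Hoxb4 at 0.33 and Hoxd8 at 0.59 did not pass. Haglr rose by 2.17 (SE 0.31, adjusted p = 0.000448), from 2.16 to 27.6 CPM, beside Hoxd1 whose start lies 83 bases from its own.

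Hoxa5 in the Calca gate differed by run. It was at 3.68 CPM in Blue and 3.22 in Red, and at 13.2 to 31 CPM in the 4 mice of runs 2 to 4, with no overlap. In run 1 alone it was called lower in the Calca gate, while in runs 2 to 4 the difference was 0.79 with adjusted p = 0.378. The satellite glia sum of the same cells was 1007 CPM in Blue, 1190 in Red, 156 in Control1 and 1486 to 2457 in the other 3 mice. Its part in the difference was not tested.

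The Mrgprd and Calca gates, which share no cell, were set against each other in all 6 mice. This comparison, like the other 2 between gates, was added after the data were seen. Of 9042 genes, 22.3% were called, and of 9 members tested 2 were higher in Mrgprd cells, 3 were lower and 4 did not pass. Hoxd1 was lower by 2.51 in Mrgprd cells (SE 0.27, limma adjusted p = 3e-05): its 6 Mrgprd means ran from 0 to 2.12 CPM and its 6 Calca means from 20.6 to 32.3 CPM. Hoxd3 was lower by 2.06 (SE 0.29, adjusted p = 0.00023), at 0 to 1.72 CPM against 10.3 to 29.4 CPM. Hoxd8 was lower by 1.05 (SE 0.29, adjusted p = 0.0212), at 6.43 CPM against 18.4, in 6 of 6 mice with a small overlap. Hoxb5 was higher by 1.29 (SE 0.25, adjusted p = 0.00267), at 33.9 to 72 CPM against 11.4 to 26.7 CPM, and Hoxb3 by 0.93 (SE 0.28, adjusted p = 0.0315). Hoxa4 at 0.27, Hoxa5 at 0.14, Hoxb2 at 0.66 and Hoxb4 at −0.11 did not pass. Haglr was lower by 2.33 (SE 0.33, adjusted p = 0.000237), at 1.36 CPM against 27.6. Hoxd1 and Hoxb5 kept their calls in all 6 fits that left out a mouse. Hoxd3 fell below the level filter without Blue, Red or Control6, so it was not tested in those fits. Hoxd8 was not called without Blue, Red or Control2, and Hoxb3 not without Blue, Red, Control2 or Control6. With the 4 mice of runs 2 to 4 alone, Hoxd1 was the only member called, and Hoxd3 was again below the filter.

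**Figure D5:**
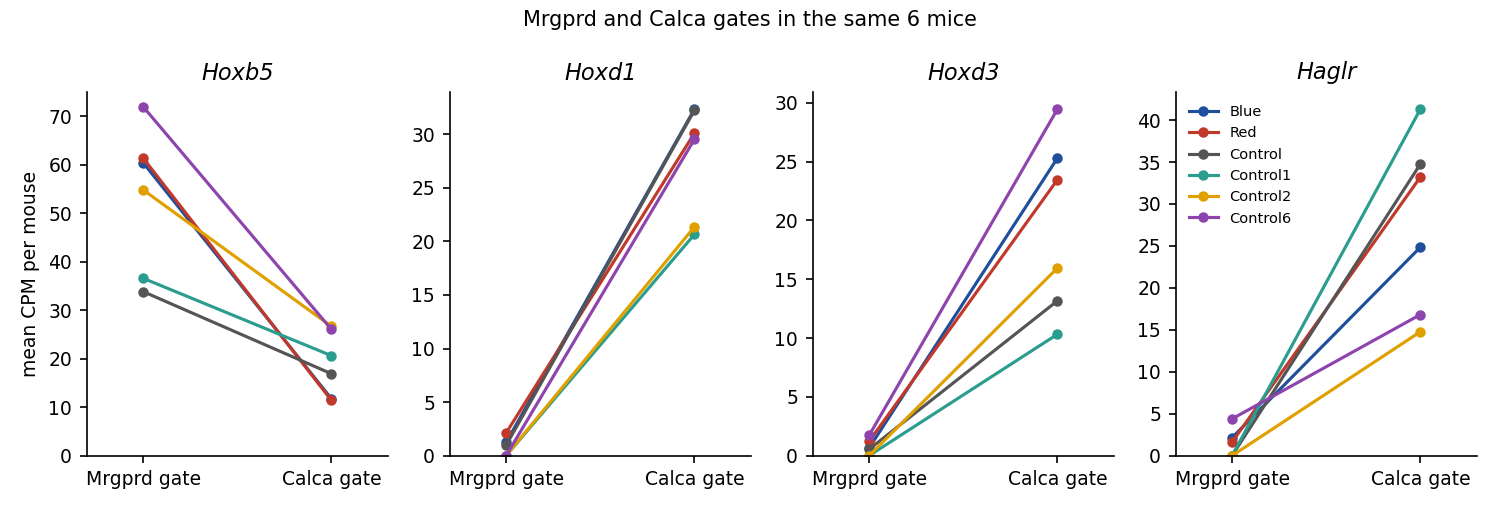
Mean CPM per mouse (y axis, a separate scale in each panel) of Hoxb5, Hoxd1, Hoxd3 and Haglr in the Mrgprd gate and the Calca gate (x axis); each line joins the 2 values of 1 mouse, 6 mice in all. Hoxb5 is higher in the Mrgprd gate in 6 of 6 mice, and Hoxd1, Hoxd3 and Haglr are higher in the Calca gate in 6 of 6.

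In the Mrgpra3 gate Hoxb5 was in 0 of 47 cells, which allows a share of cells with a count of up to 6.38% and does not limit expression below detection. Only Blue, Red and Control2 had 3 or more such cells, and 3.59% of 8964 genes were called. Of 4 members tested Hoxb5 fell, at 0 CPM in the gate in each of the 3 mice against 44.1 in Blue, 38 in Red and 35.4 in Control2 (limma adjusted p = 0.0118). The call was lost in thinned cells and with no filter (adjusted p = 0.0507). Hoxa4 at −0.25, Hoxd1 at −0.67 and Hoxd8 at 0.45 did not pass. The members below the filter were also scarce among cluster B: Hoxb4 was in 1 of 47 cells, Hoxb7 in 1, Hoxb2 in 2, Hoxb3 in 8, and Hoxa5 of cluster A in 2. Hoxd1 was in 20 of 47 cells (42.6%), Hoxd3 in 14 (29.8%) and Hoxd8 in 13 (27.7%). The Hoxd1 cells were all of run 1, at 19.1 CPM in Blue and 17.8 in Red, and it was at 0 CPM in the 2, 2, 3 and 2 Mrgpra3 cells of Control, Control1, Control2 and Control6. Median depth of these cells, 38541 counts, was above that of the Calca gate.

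Since most Mrgpra3 cells were also Calca cells, all Mrgpra3 cells were set against the other Calca cells of the same 3 mice. Mrgpra3 cells outside the Calca gate were included. Those inside it were 15 of 19 in Blue, 16 of 19 in Red and 2 of 3 in Control2. Of 9139 genes, 7.67% were called, and 2 of 5 members tested fell. Hoxb4 was at 0 CPM in all 3 mice, against 25.3 in Blue, 14.4 in Red and 28.1 in Control2 (limma adjusted p = 0.0328). Hoxb5 was at 0 CPM against 16.5, 15.9 and 35.6 (adjusted p = 0.0375). Hoxd1 at −1.47 (adjusted p = 0.16), Hoxd3 at −1.12 and Hoxd8 at 0.24 did not pass. Both calls were lost without Blue and without Red. Without Control2 neither gene was tested, and Hoxd1 and Hoxd3 were called lower in their place.

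In the Th gate 32 cells of Blue and Red, both of run 1, could be compared with other cells. Of 9085 genes, 28.7% were called. Of 6 members tested 2 rose and 1 fell. Hoxa5 rose by 1.85 (SE 0.30, limma adjusted p = 1.92e-08), at 62.7 CPM in Blue and 36.9 in Red against 11.9 and 8.03 CPM. Hoxb5 rose by 1.22 (SE 0.23, adjusted p = 1.18e-06), at 78.6 and 70.6 CPM against 31.5 and 26.9 CPM. Hoxd1 fell by 0.92 (SE 0.36, adjusted p = 0.0352), at 17.8 and 3.88 CPM against 22.7 and 21.3 CPM. Hoxa4 at 0.90 (adjusted p = 0.0509), Hoxb3 at −0.79 and Hoxb4 at −0.10 did not pass. Hoxa5 was detected in 27 of 39 Th cells (69.2%) and Hoxb5 in 28 (71.8%). Control, Control2 and Control6 gave 2 Th cells each, with Hoxa5 at 32.6, 22.9 and 0 CPM, and the 1 Th cell of Control1 was at 102.96 CPM. With mice of 2 cells per arm included, 5 mice entered, and limma called 0 of 7 members, with 0 at an unadjusted p under 0.05. Hoxa5 was then at 0.72 and Hoxb5 at 0.32. The Th calls rest on the 2 mice of run 1. With 2 mice, their p-values draw mainly on the variance that limma shares over genes and measure little of the spread between mice. Hoxd1 was not called by edgeR, by DESeq2, with a pseudocount of 1, with no filter or in thinned cells. Its call was also lost with doubled gate thresholds, in cells in exactly 1 gate, with means of log values and with no mouse block. The same held without cells high in satellite glial RNA.

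The Th gate and the Calca gate, without the cells in both, were also compared in Blue and Red. Of 9152 genes, 30.8% were called, and of 7 members tested 3 were higher in Th cells and 2 lower. Hoxa5 was higher by 2.84 (SE 0.37, limma adjusted p = 1.82e-09), at 71.6 and 38.4 CPM against 3.83 and 2.37. Hoxb5 was higher by 2.46 (SE 0.32, adjusted p = 1.18e-09), at 88.3 and 65.1 CPM against 11.8 and 7.86. Hoxa4 was higher by 1.45 (SE 0.40, adjusted p = 0.00283), at 25.7 and 18.3 CPM against 4.56 and 5.03. Hoxd3 was lower, at 0 CPM in both mice against 24.9 and 23.3 (adjusted p = 9.02e-07), and Hoxd1 lower by 1.43 (SE 0.38, adjusted p = 0.00155). Hoxb4 at −0.26 and Hoxd8 at −0.34 did not pass. Haglr was lower by 1.94 (SE 0.40, adjusted p = 4.86e-05). These p-values too come from 2 mice and draw mainly on the variance shared over genes. DESeq2 called 2 members, Hoxa5 and Hoxb5, and in thinned cells 3 were called, these and Hoxd3.

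Markers of other cell types differed between the gates. The satellite glia sum was 503 CPM over Mrgprd cells, 843 over Mrgpra3, 916 over Th, 1271 over Calca and 1458 over cells of no gate, and all 8 of its genes were detected. Without cells above 1000 CPM of this sum, Hoxb5 stayed past the threshold in the Mrgprd gate, in the Mrgpra3 gate (2 mice left) and in the Th gate, and Hoxa5 in the Th gate. Hoxd8 in Mrgprd and Hoxd1 in Th did not. The Schwann cell sum of 8 genes was 3012 CPM over Th cells and 1028 to 1337 CPM over the other 3 gates. The mural cell sum of 5 genes was 615 CPM over Th, 399 over Mrgpra3, 86.5 over Calca and 37.1 over Mrgprd cells. The part of the Schwann and mural genes in the Th and Mrgpra3 results was not tested.

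TALE cofactors were tested in the same fits, where 22.1% of all genes were called for Mrgprd, 14.1% for Calca and 28.7% for Th, and with so few genes their counts are a description only. In the Mrgprd gate 6 of 9 were tested: Pknox2 rose by 1.26 (SE 0.16, limma adjusted p = 3.03e-05), at 98.5 against 39 CPM, in 6 of 6 mice, Pbx3 rose by 0.81 (adjusted p = 0.0464), and Meis3 fell by 0.76 (adjusted p = 0.0329), a call lost when any mouse other than Control was left out. In the Calca gate 2 of 6 fell and none rose: Pknox2 by 1.28 (SE 0.28, adjusted p = 0.00759), at 29.9 against 75.1 CPM, and Pbx3 by 1.33 (adjusted p = 0.0128), at 5.98 against 20.6 CPM. In the Th gate 2 rose, Pknox2 by 0.65 and Pbx3 by 0.77, and Pknox1 fell by 0.94, of 6 tested. With 2 cells per arm and 5 mice these were not called, at −0.059 for Pknox2, 0.22 for Pbx3 and −1.12 for Pknox1. In the Mrgpra3 gate 0 of 6 passed, and against the other Calca cells Pbx3 was higher by 2.18 (adjusted p = 0.0492), at 29 against 1.59 CPM. Pknox2 was at 98.5 CPM in the Mrgprd and 91.3 in the Th gate, against 29.9 in the Calca and 21.7 in the Mrgpra3 gate.

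Polycomb and trithorax genes, regulators of HOX genes, were called in shares below or near those of all genes given above, so their counts are no result about these lists. Of 21 polycomb genes tested for Mrgprd, 0 rose and 2 fell, with Cbx6 at −1.23 (SE 0.14, limma adjusted p = 1.12e-05) and 96.7 against 239 CPM, and Rbbp7 at −0.45, which was not called when any mouse other than Control was left out. For Calca 1 of 21 rose, again Cbx6, by 0.95 (SE 0.12, adjusted p = 0.000188), and none fell. For Th 2 of 21 rose, Cbx6 by 0.45 and Cbx7 by 0.64, and Pcgf1 fell by 1.11. With 2 cells per arm none of these 3 was called, and Cbx7 was at −0.19. For Mrgpra3 0 of 19 passed. Cbx6 is a chromodomain protein of polycomb repressive complex 1. Of 13 trithorax genes, which keep HOX genes active, 1 fell in Mrgprd cells (Psip1, by 0.49), none passed in Calca or Mrgpra3, and 1 rose and 3 fell in Th. The medians of all genes were −0.03, −0.07, 0.02 and −0.02 for Mrgprd, Mrgpra3, Th and Calca. In that order the polycomb medians were −0.18, −0.07, 0.11 and −0.12, and the trithorax medians −0.25, −0.34, −0.02 and −0.15. The trithorax median was below that of all genes in each gate, a shift that was not tested.

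Genes of retinoic acid and axial signalling were tested in smaller numbers, 5, 4, 4 and 4 of 18 for the Mrgprd, Mrgpra3, Th and Calca gates. In that order 2, 0, 0 and 2 rose and 2, 1, 2 and 1 fell. Of all genes 22.1%, 3.59%, 28.7% and 14.1% were called, and with so few genes tested these counts are a description only. Rxrg, a retinoid X receptor, fell by 2.21 in Mrgprd cells (SE 0.27, limma adjusted p = 2.02e-05), at 0.936 against 22.4 CPM, and by 2.07 in Th cells, and rose by 2.37 in Calca cells (SE 0.26, adjusted p = 6.65e-05), at 39 against 3.65 CPM. In Mrgpra3 cells it was at 0 against 21.2 CPM (adjusted p = 0.034). Rarg, a retinoic acid receptor, rose by 0.96 in Mrgprd and fell by 1.25 in Calca cells. Cyp26b1, which degrades retinoic acid, rose by 2.37 in Mrgprd cells (adjusted p = 2.07e-05), at 28.4 against 0.733 CPM. Gdf11, a ligand that sets posterior HOX limits in the embryo, rose by 1.21 in Calca and fell by 1.34 in Th cells. Of genes that flank the clusters, 7 were tested for Mrgprd, where Snx10 beside cluster A rose by 1.11 and Cbx5 fell by 0.71. Of 7 tested for Calca only Snx10 was called, lower by 0.85. In Th cells (2 mice) Smug1 rose by 1.13 and Snx10 fell by 0.33, of 8 tested. In Mrgpra3 cells 0 of 8 passed. These counts too are a description only.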

How the data were processed

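Single tdTomato-positive neurons were sequenced by a digital RNA method, per the labels. The authors aligned with STAR 2.7.3a to mm10, per the submitters' processing notes, and deposited 1 table of gene values per run. The deposited values are a signal, which the authors made by scaling: the steps between low values show counts times a factor of each cell. Neither the origin of that factor nor the strand setting of the counting was found in the labels or notes. Counts were recovered from the step between low values (a median of 96.5% of them whole within 0.1). Of 400 labelled cells, 394 had values. Rn45s (7.10% of the signal) and 26 date-like entries (0.154%) were left out before values were scaled to CPM. Cells with at least 500 genes were kept, and no doublet caller was run.

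Mean CPM per mouse and arm entered limma 3.58.1 (R 4.3.3) as log2 with a pseudocount of 5, a mouse block and a trended prior, two-sided, with Benjamini-Hochberg adjustment at 0.05 over all genes with a mean of 10 CPM. edgeR 4.0.16 and DESeq2 1.42.0 on recovered counts, other pseudocounts, no filter, thinning, runs and left-out mice were alternatives. The fits were tested on simulated data. Every member tested was named with its difference, and of the other lists up to 3 called genes of smallest p per comparison; Pbx3 in the Mrgprd gate and uncalled cofactor levels were named after their values were seen. Members and lists were chosen with earlier results of these data known, and the comparisons between gates were added after seeing the data. Single values of 2 genes are not reported here.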

Additional observations from a re-analysis of the deposited data

Results flagged for a closer look

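Of 22 sets of 6 mouse means tested for a mouse that stands apart, 3 had one, and chance flags about 1 in 20 groups. Hoxa2 was at 8.55 CPM in mouse Control2, with the next mouse at 1.23 CPM. It was found in 2 of 23 cells of that mouse, 76.5% of the level came from 1 cell at 150 CPM, and without that cell the mean was 2.10 CPM. Hoxc8 was at 6.27 CPM in mouse Control, with the next at 0.166 CPM, from 1 of 50 cells at 314 CPM. The summed level of cluster C was 11.4 CPM in mouse Control, with the next at 2.04 CPM. Of this, 89.3% came from the same cell, and without it the sum was 1.25 CPM. The 2 results of mouse Control thus rest on the cell with 25 HOX genes.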

How the results depend on the processing

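No paired analysis was possible because the replicate numbers in the labels are cell numbers, which match nothing between mice. This holds only for pairing cells of different mice by replicate number. The main comparisons were paired within each mouse. The 2 arms of a mouse were kept together by a mouse block, left out only in the alternative with no mouse block for the 4 gates against other cells, where Hoxd1 and Pbx3 lost their calls for Th and Hoxb5 and Hoxd3 gained calls for Calca. Of single-gene values under alternatives, 1444 kept direction and side of the threshold, 220 lost a call, 45 gained one and 44 changed sign. The causes were not tested. Depth limits the shares of cells: members of 2 or more clusters were in 25.3% of cells at 2 recovered counts and 25.4% in thinned cells. Fits without a mouse could not be made for Th, nor fits on runs 2 to 4 for Th and Mrgpra3, nor cells in exactly 1 gate for Mrgpra3.

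HOX genes called for Calca were 4 by edgeR and in run 1, 3 by DESeq2, in cells in exactly 1 gate, with means of log values and with no mouse block, 2 with TMM scaling, 1000 genes per cell, no filter or a pseudocount of 20, and 1 to 3 with a mouse left out. By limma they were 0 in thinned cells and without glia-high cells (3 and 4 at an unadjusted p under 0.05). For Mrgprd they were 5 with no filter and 1 to 4 with a mouse left out. For Mrgprd against Calca they were 1 in runs 2 to 4, 2 in thinned cells, 3 without glia-high cells and 2 to 5 with a mouse left out. For Mrgpra3 limma called 0 with no filter and in thinned cells (8 and 2 at an unadjusted p under 0.05), while edgeR and DESeq2 called 1 in the unthinned cells. Against other Calca cells limma called 0 with a pseudocount of 1 and in thinned cells (2 and 3 unadjusted; edgeR 3 and DESeq2 2 in the unthinned cells), and 0 to 2 with a mouse left out (without Blue 0, without Red 0, 3 unadjusted in each). For Th limma called 0 with 2 cells per arm (0 unadjusted; edgeR 3 and DESeq2 2 at 3 cells). For Th against Calca there were 2 of 7 by DESeq2, 8 of 20 with no filter and 3 of 6 in thinned cells. With no filter, 24% of all genes were called for Th against Calca, 5.43% for Calca, 11.6% for Mrgprd and 0.608% for Mrgpra3. The Calca fits tested 7 to 9 members, and 33 with no filter. With so few members tested, all these counts are a description only.

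All genes called for Calca were 1947 by edgeR, 2642 in run 1, 764 in runs 2 to 4, 741 in thinned cells and 672 without glia-high cells. For Mrgprd they were 3045 with means of log values, 3136 in run 1, 1289 in runs 2 to 4, 1208 thinned and 1107 without glia-high cells, and against Calca 3330, 1203, 1086 and 1099 for the last 4. For Mrgpra3 they were 714 by DESeq2, 1683 by edgeR, 2262 in run 1, 1.0e+02 with no filter (to 2 digits; 38 higher and 63 lower), 150 with a pseudocount of 1, 100 thinned, 2027 without glia-high cells and 354 to 2262 with a mouse left out (2262 without Control2). Against other Calca cells they were 1947 by edgeR, 2480 in run 1, 438 with a pseudocount of 1, 154 thinned, 2015 without glia-high cells and 322 to 2480 with a mouse left out (322 without Blue, 2480 without Control2). For Th they were 1019 by DESeq2, 890 with 2 cells per arm and 1438 thinned, and against Calca 924 by DESeq2 and 1451 thinned. Means of log values moved the median of all genes to 0.28 for Mrgprd, 0.17 for Mrgpra3 and 0.14 for Calca, and the share of calls that were higher from 44% to 78% for Mrgprd, 37.9% to 67.5% for Mrgpra3, 53.7% to 68.2% for Calca and 49.8% to 61% for Th.

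None of the values that changed sign passed the threshold there. Hoxa4 for Mrgprd was 0.024 by DESeq2, 0.12 by edgeR, 0.15 with means of log values and 0.41 in run 1; against Calca it was −0.015 in runs 2 to 4 and −0.079 thinned; for Mrgpra3 it was 0.30 thinned and −0.049 to 0.16 with a mouse left out. Hoxa5 for Calca was 0.069 by DESeq2, 0.79 in runs 2 to 4, 0.0155 with a pseudocount of 20, 0.078 thinned and −0.30 to 0.33 with a mouse left out. Hoxa5 for Mrgprd was −0.32 by DESeq2, −0.26 in exactly 1 gate, −0.15 by edgeR and −0.17 thinned, and against Calca −0.105 by DESeq2, −0.47 in runs 2 to 4, −0.21 thinned and −0.15 to 0.37 with a mouse left out. Hoxb4 was −0.32 thinned for Calca, −0.031 in exactly 1 gate and −0.20 thinned for Mrgprd, and 0.018 by edgeR, 0.25 thinned and −0.26 to 0.024 with a mouse left out for Mrgprd against Calca. For Th, Hoxb4 was 0.11 by DESeq2, 0.15 by edgeR, 0.013 with doubled thresholds and 0.0175 with means of log values, and with 2 cells per arm Pknox2 was −0.059 and Cbx7 −0.19. For Mrgpra3, Hoxd1 was 0.0345 by DESeq2, 0.24 by edgeR and 0.040 with means of log values. Hoxd8 was −0.34 with 2 cells per arm and −0.012 without glia-high cells, and against other Calca cells −0.059 in run 1, −0.45 without glia-high cells and −0.059 to 0.46 with a mouse left out.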
